A study of Mus musculus with 18 samples.

Results

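Advanced pluripotent stem cells (ASCs) were compared with epiblast-like cells (EpiLCs) across all genes. The comparison used the 3 samples labelled ASC and the 3 labelled EpiLC, 6 of the 18 RNA-seq samples of a mouse study that covers 6 pluripotent cell types with 3 samples each. The groups were set by the labels alone and no expression value chose them. The question was how the expressed genes of 2 states that lie between naive embryonic stem cells (ESCs) and primed cultures differ from each other.

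All 6 samples are labelled wild type, with 129S2/SvPasCrl as the strain, whereas the methods describe lines from 129 females mated with males that carried the GOF-GFP reporter of Oct4 on a mixed background. The ASCs were obtained from AFSCs, primed cells grown from blastocysts in activin A and bFGF, by culture in ABCL, a serum-free medium with activin A, BMP4, the GSK3 inhibitor CHIR99021 and LIF. The medium and the induction time of the EpiLCs are not given in the sources used here, nor are the lines of either group named. Medium, line and cell state therefore cannot be told apart in this comparison, and samples of one group may be cultures of a single line, so that p-values measure the spread between cultures.

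As background, naive pluripotent cells stand for the epiblast before implantation and are held by LIF acting through STAT3, by Wnt signalling released through inhibition of GSK3, and by transcription factors such as Esrrb, Klf4 and Tfcp2l1. EpiLCs are commonly made by exposing naive ESCs to activin and FGF, and stand for the epiblast soon after implantation, when the naive factors are shut off and Fgf5, Pou3f1 and the de novo DNA methyltransferases come on. Primed cells such as epiblast stem cells (EpiSCs) stand for a later epiblast that already expresses lineage genes. In bulk RNA of this kind, fewer cells that express a gene and less RNA of that gene per cell cannot be told apart.

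The deposited values are counts of read pairs per gene. Total counts were 7165615 to 8148294 in the ASC samples and 8343111 to 9906473 in the EpiLC samples, and 16901 of 35773 genes had enough counts to be tested. Levels are given as normalized counts per kb, that is counts divided by a size factor for the library and by the exonic length of the gene, and differences as log2 fold changes, ASC minus EpiLC, from the edgeR fit. The first replicate of each group stood apart from the other two of its group. Its counts differed from theirs by a chi-square per degree of freedom of 32.9 and 38 in ASCs and of 21.5 and 25.1 in EpiLCs, against 3.62 and 2.29 between the other two. The first ASC replicate was low on short genes and the first EpiLC replicate was high on them. The median log2 fold change of the comparison ran from -0.21 over the shortest eighth of the genes (up to 1171 bases of exon) to 0.37 over the longest eighth (from 7941 bases). Without the first replicate of both groups it ran from -0.18 to 0.16. Results that lean on short or long genes are given with and without these libraries.

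The labels were set beside marker genes. These were chosen with earlier results of these data known, so they are no independent check of the labels. All 7 markers listed for ASCs (Esrrb, Klf4, Tfcp2l1, Tbx3, Prdm14, Zfp42 and Nr0b1) were higher in ASCs, with a summed level of 4230 to 5100 normalized counts per kb in the ASC samples and 166 to 192 in the EpiLC samples. The study reported Esrrb, Tfcp2l1, Klf4, Tbx3 and Prdm14 in both ASCs and ESCs, so these do not tell ASCs from naive ESCs. Means in naive ESCs were 786 for Klf4, 269 for Tbx3 and 164 for Prdm14, against 987, 385 and 127 in ASCs. Of 7 markers listed for EpiLCs, 6 were lower in ASCs and Dnmt3l was higher. Markers of other cell types were low in both groups. The 5 markers of primitive endoderm summed to 16 to 22.8 in ASCs and 12.1 to 13.1 in EpiLCs, the 5 of mesoderm to 33.8 to 34.5 and 8.82 to 14.8, and the 5 of trophoblast to 15.2 to 17.7 and 4.11 to 6.78, with Prl3d1 at 0 in all 6 samples and Mesp1 at 0 in the EpiLC samples. The 7 fibroblast markers summed to 75.3 to 117 in ASCs and 111 to 126 in EpiLCs, of which Col1a1 made up the larger part in ASCs and Dcn in EpiLCs.

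The 2 states differed at most of the genes tested when calls of any size are counted. Of 16901 genes tested, 5308 were higher in ASCs (31.4%) and 4793 lower (28.4%) at an adjusted p below 0.05 by the quasi-likelihood F test of edgeR, adjusted after Benjamini and Hochberg. Past 4-fold, with a mean log2 level above 3 in the higher group, 1202 genes were higher (7.11%) and 484 were lower (2.86%), so that larger differences were more often on the ASC side. The 3 samples of one group did not overlap with the 3 of the other at 11076 genes (65.5%). Against a 1.5-fold change (glmTreat), 3470 genes were called higher and 2524 lower. The median log2 fold change over all genes was 0.04. Scaling by library totals without TMM factors moved that median to 0.24 and gave 6237 higher and 3620 lower genes, so that 63.3% of the calls were higher in place of 52.5%.

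**Figure D1:**
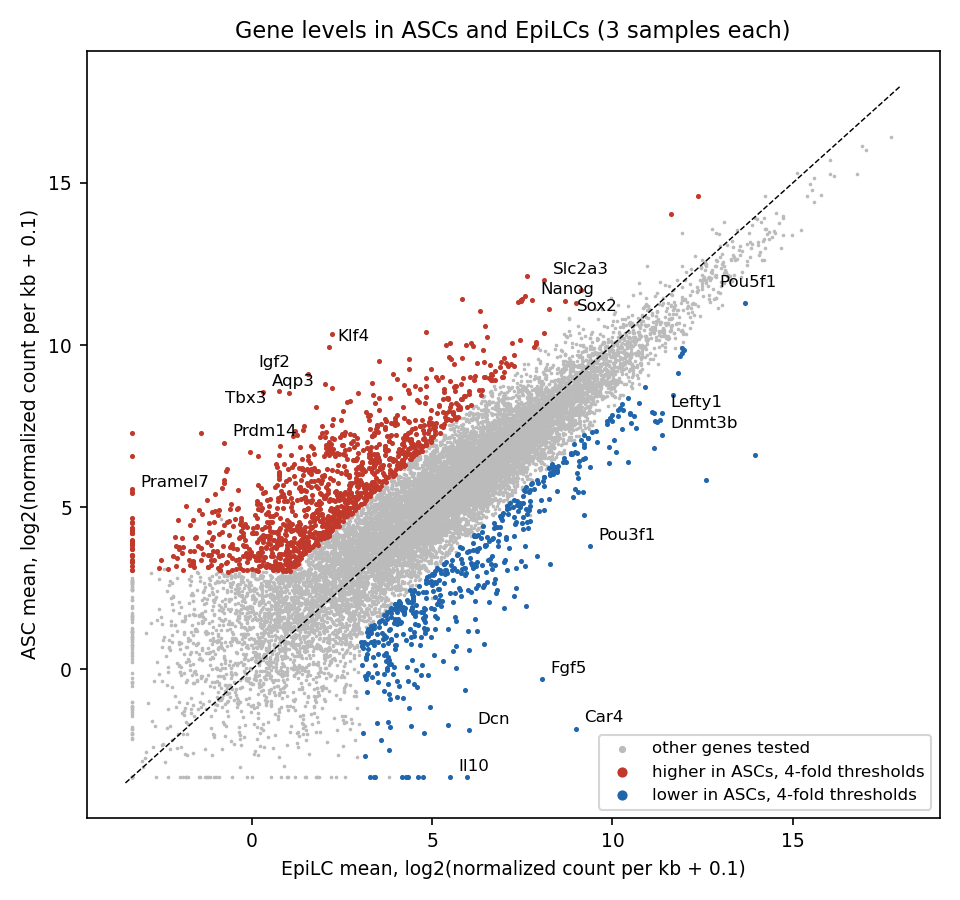
Mean level of each tested gene in EpiLCs (x axis) and in ASCs (y axis), both as log2(normalized count per kb + 0.1), with the means of 3 samples each. Red points are the 1202 genes higher and blue points the 484 genes lower in ASCs past the 4-fold thresholds; the dashed line marks equal levels, near which Pou5f1 lies at the high end.

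The genes with the largest fold changes on the ASC side included several that were absent from EpiLCs. Pramel7, a PRAME-like gene of naive cells, had 77, 104 and 77 counts in the ASC samples and 0 in each EpiLC sample, and was at least 89.9-fold higher when EpiLCs are set to a floor of 3 counts over the group. The same bound was at least 83-fold for Mobp, 58.9-fold for Stk33, 58.2-fold for the transcription factor Spic, 42.2-fold for Edn1, which encodes endothelin-1, 25.1-fold for Serpina3i, 21.6-fold for the alkaline phosphatase gene Alppl2 and 19.9-fold for Nnmt, a methyltransferase that consumes S-adenosylmethionine. None of these genes had a count in an EpiLC sample. Aqp3, which encodes a channel for water and glycerol, was expressed far more strongly, at 422, 364 and 334 normalized counts per kb in ASCs against 1.90, 0.967 and 0.585 in EpiLCs (log2 fold change 8.28 ± 0.26, SE; edgeR adjusted p = 2.16e-12). Ly6g6e had 554 counts in ASCs and 1 in EpiLCs, a ratio of 579 with a counting interval of 104 to 22900.

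On the EpiLC side Car4, a carbonic anhydrase anchored to the cell surface, stood out. It was at 536, 508 and 490 normalized counts per kb in EpiLCs and at 0.549, 0 and 0 in ASCs, which is 2942 counts against 1 and a ratio of 2810 (counting interval 504 to 111000). Car4 was also low in the other 4 cell types, with means of 1.34 in naive ESCs, 10.6 in AFSCs, 4.74 in EpiSCs and 0.419 in ESC-ASCs. Il10, which encodes the cytokine interleukin-10, had 170 counts in EpiLCs and 0 in ASCs (at least 54.2-fold higher in EpiLCs), and Jakmip2 had 245 and 0 (at least 78.1-fold). The bound was 51.6-fold for Mir670hg, 44-fold for Pcsk2os1, 28.7-fold for the cadherin gene Cdh9, 22-fold for Glyatl3 and 17.2-fold for Tmem100. Dcn, the proteoglycan decorin, had 390 counts in EpiLCs and 1 in ASCs (ratio 373, interval 66.5 to 14800). Other genes of fibroblast matrix went in different directions. Lox was lower in ASCs too (log2 fold change -2.42), with 3 counts in ASCs and 18 in EpiLCs. Col3a1 and Col1a2 had log2 fold changes of -0.35 and -0.53 that did not pass the test, and Col1a1 and Col5a1 were higher in ASCs by 3.90 and 3.10. Of 15 tested fibroblast genes, 4 were higher and 3 lower. Gfra1, a co-receptor for GDNF, had 349 counts against 3 (ratio 111, interval 37.7 to 542). Cend1 (221 counts against 1, ratio 211, interval 37.5 to 8380), Rbbp8nl (187 against 1, ratio 179, interval 31.7 to 7100), Kynu (157 against 1, ratio 150, interval 26.6 to 5970) and the histone gene Hist1h2af (log2 fold change -6.77) completed this group. Hist1h2af had 3713, 1808 and 1410 counts in the EpiLC samples. Gm44297, a short gene model within it on the other strand, had 3406, 1644 and 1247. Counting did not use strand, so the Hist1h2af value may be that of this model.

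By the size of the difference in level, the genes that separated the states most on the ASC side included Dppa5a, an RNA-binding protein of pluripotent cells, at 24563 ± 4401 normalized counts per kb in ASCs against 5304 ± 278 in EpiLCs (SD, n = 3). Ckb, the brain-type creatine kinase, was at 3360, 5268 and 4798 in ASCs and at 205, 199 and 195 in EpiLCs (log2 fold change 4.46 ± 0.17; edgeR adjusted p = 4.59e-13). Hspb1, a small heat shock protein, was at 3291 ± 1184 and 562 ± 27 (2.52 ± 0.20). Others of this group were Pgk1, Slc2a3, Eef2 and Rps4x, together with 2 gene models under 100 bases long, Mir5114 and Mir6904. On the EpiLC side the largest differences were at 6 gene models annotated as miRNAs, at the ribosomal RNA models AY036118 and CT010467.1, and at the ribosomal protein genes Rps12 and Rps24. One of the miRNA models was Gm44297, which lies within Hist1h2af, so the 2 are not separate results.

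The naive pluripotency genes were higher in ASCs. All 32 genes of the list passed the count filter, with a median log2 fold change of 4.02. Of these, 27 were higher (84.4%), 1 was lower (3.12%) and 4 passed in neither direction, against 31.4% higher and 28.4% lower among all genes tested. Of the 25 with at least 10 counts in each of the 6 samples, 20 were higher and 1 lower, with a median of 3.03. Nr5a2, an orphan nuclear receptor upstream of Oct4, was at 107, 93.5 and 94.3 normalized counts per kb in ASCs against 1.57, 1.80 and 1.45 in EpiLCs (log2 fold change 5.88 ± 0.23, SE; edgeR adjusted p = 5.08e-13). The Kruppel-like factors Klf2 (1074 ± 301 and 45.1 ± 8.10) and Klf5 (452 ± 53.6 and 9.95 ± 6.31) had log2 fold changes of 4.55 and 5.41. Tdh, the enzyme that breaks down threonine in mouse ESCs, was at 1155, 1448 and 1480 against 27, 25.4 and 33.6, and Tcl1, a cofactor of AKT kinase, at 316, 476 and 427 against 3.76, 4.32 and 5.80. For each of these genes the lowest ASC sample was more than 10 times above the highest EpiLC sample.

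Some genes of this list were retained in EpiLCs. Zfp42, the Rex1 gene, was at 1277, 1625 and 1675 in ASCs and still at 104, 84.7 and 76.2 in EpiLCs, where AFSCs and EpiSCs had means of 0.682 and 0. Nr0b1, an X-linked partner of Nanog and Oct4, was at 423, 578 and 564 against 70.9, 53.8 and 72.8. Dppa3, the maternal factor Stella that protects methylation in the zygote, overlapped between the groups, at 189, 296 and 271 in ASCs and 205, 118 and 127 in EpiLCs (0.73 ± 0.28; edgeR adjusted p = 0.0319), and no longer passed the test without the second or the third replicate of either group. Gbx2, Tfe3, Gdf3 and Dppa2 did not pass the test, with log2 fold changes from -0.17 to 0.16. Eras, an X-linked Ras gene of ES cells, was the one member that was lower in ASCs, at 80.1, 162 and 134 against 312, 228 and 227 (-1.05 ± 0.21; edgeR adjusted p = 0.000367).

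Core pluripotency genes did not move together. Of 12 listed, 4 were higher (33.3%) and 4 lower (33.3%), near the shares of 31.4% and 28.4% among all genes tested. Nanog was at 2222, 2853 and 2913 normalized counts per kb in ASCs against 263, 193 and 204 in EpiLCs (log2 fold change 3.57 ± 0.17; edgeR adjusted p = 8.35e-12), and its EpiLC level was the lowest of the 6 cell types, below the means of 738 in AFSCs and 1479 in EpiSCs. Sox2 was higher in ASCs by 1.98 ± 0.19. Utf1, a chromatin factor of pluripotent cells, went the other way, at 579, 1242 and 1148 in ASCs and 3966, 3667 and 3839 in EpiLCs (-1.98 ± 0.21; edgeR adjusted p = 2.53e-07). The RNA-binding proteins Lin28a (-1.63) and L1td1 (-0.98) and the chromatin protein Dppa4 (-1.01) were also lower in ASCs. Pou5f1, which encodes Oct4, overlapped between the groups and did not pass the test (-0.20 ± 0.19; edgeR adjusted p = 0.39).

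**Figure D2:**
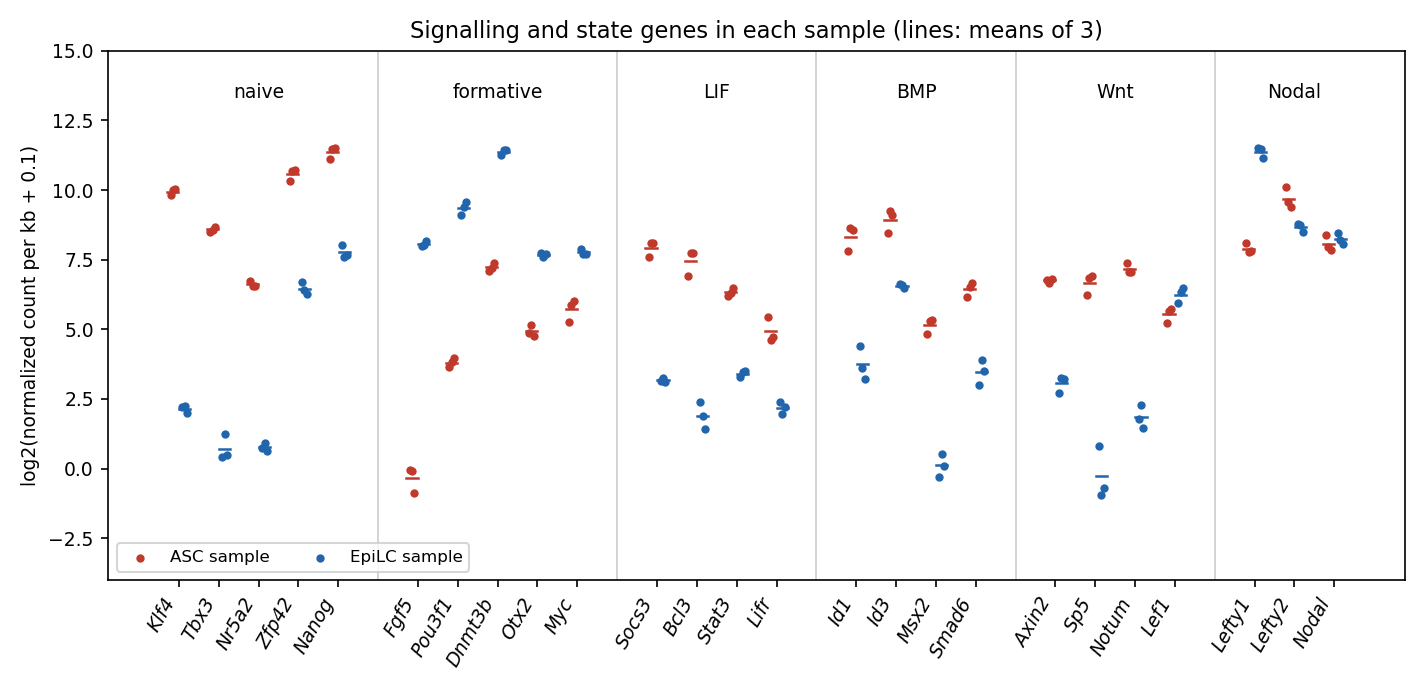
Level of 25 genes in each ASC sample (red) and each EpiLC sample (blue), as log2(normalized count per kb + 0.1) on the y axis, with genes grouped on the x axis by the state or pathway they belong to and short lines for the means of 3 log values. Naive, LIF and BMP genes sit higher in ASCs and the formative genes lower, while Lefty1 and Lefty2 lie in opposite directions and Nodal overlaps.

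Formative and early primed genes were lower in ASCs. Of 36 listed and tested, 26 were lower and 6 higher, with a median log2 fold change of -1.72. Fgf5, the FGF ligand that marks the epiblast after implantation, was at 0.863, 0.830 and 0.439 normalized counts per kb in ASCs against 252, 259 and 287 in EpiLCs (-8.48 ± 0.32; edgeR adjusted p = 1.7e-12). Pou3f1, the Oct6 gene, was at 12.3, 14 and 15.4 against 550, 677 and 760 (-5.60 ± 0.20), and its EpiLC level was the highest of the 6 cell types. Pim2, an X-linked survival kinase, was at 93.4, 117 and 130 against 2232, 2206 and 2331 (-4.34 ± 0.23). Sall2, a zinc finger factor, was at 9.97 ± 0.799 against 176 ± 6.50, and Crabp2, which carries retinoic acid, at 20.6 ± 3.77 against 200 ± 32.4.

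The members of the list that were higher in ASCs included Dnmt3l, Etv4, Grhl3, Pcsk6 and Nkx1-2. Pcsk6, a convertase that cleaves pro-Nodal, was at 175, 140 and 131 in ASCs and 12, 19.6 and 11.8 in EpiLCs (3.32 ± 0.22; edgeR adjusted p = 5.1e-10). Grhl3, a grainyhead factor of surface epithelia, was at 66.5, 87.5 and 94.8 against 8.29, 8.56 and 7.67 (3.31 ± 0.19). In both genes every ASC sample lay above every EpiLC sample. The groups did not overlap, in either direction, at 65.5% of all genes tested.

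DNA methylation enzymes went in both directions. The 2 de novo methyltransferases were lower in ASCs, Dnmt3a at 38.6, 37 and 38.9 normalized counts per kb against 241, 334 and 338 in EpiLCs (-3.02 ± 0.16; edgeR adjusted p = 2.76e-11) and Dnmt3b at 136, 147 and 168 against 2442, 2748 and 2789 (-4.17 ± 0.16; edgeR adjusted p = 3.78e-13). Their cofactor Dnmt3l, which has no catalytic activity of its own, was higher, at 603, 963 and 901 against 386, 408 and 432 (0.98 ± 0.18; edgeR adjusted p = 0.000161). The maintenance methyltransferase Dnmt1 (0.51 ± 0.13) and its partner Uhrf1 (0.52 ± 0.18) were slightly higher in ASCs, Uhrf1 not passing the test without the third ASC replicate. Of the enzymes that oxidize methylcytosine, Tet2 was at 104, 59.1 and 69.9 against 5.14, 7.13 and 5.07 (3.71 ± 0.23), Tet1 was higher by 1.22 ± 0.23, and Tet3 overlapped between the groups (0.18 ± 0.19). Zfp57, which guards methylation at imprinted regions, was at 640 ± 65.6 against 117 ± 18.4. Over the whole list of 27 genes, 26 were tested, 10 were higher (38.5%) and 7 lower (26.9%), near the shares of 31.4% and 28.4% among all genes tested.

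The ASC medium contains LIF, BMP4, activin A and a GSK3 inhibitor, and the genes of the matching pathways were read one pathway at a time. LIF-STAT3 genes were higher in ASCs, receptors, STAT3 and targets among them. Of 21 listed genes 20 were tested, of which 15 were higher and 1 lower (Socs2), with a median log2 fold change of 1.65. Among the receptors, Lifr was at 43.2, 24.5 and 26.2 normalized counts per kb in ASCs against 5.15, 3.77 and 4.56 in EpiLCs (2.78 ± 0.22), and Il6st, the shared subunit gp130, was higher by 2.93 ± 0.24. Stat3 itself was at 73, 79.3 and 89 against 9.58, 11 and 11.1 (2.90 ± 0.21; edgeR adjusted p = 1.27e-09). Among the targets, Socs3, the feedback inhibitor of the receptor, was at 191, 272 and 273 against 8.79, 9.49 and 8.51 (4.74 ± 0.18; edgeR adjusted p = 3.59e-13), and Bcl3 at 122, 214 and 211 against 5.14, 3.57 and 2.59 (5.56 ± 0.30). The kinase genes Pim1 and Pim3, also STAT3 targets, were higher by 2.35 and 1.68, opposite to Pim2.

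Most BMP-SMAD response genes were higher in ASCs. Of 24 listed genes 21 were tested, 19 of which were higher in ASCs and 1 was lower, with a median of 2.91. The 8 members with at least 10 counts in each of the 6 samples were all higher, with a median of 1.74, and the other 13 are low or absent in some samples. The Id genes, direct SMAD targets that block bHLH factors, were all higher: Id1 was at 222, 397 and 377 normalized counts per kb in ASCs against 20.9, 12.2 and 9.23 in EpiLCs (4.54 ± 0.31; edgeR adjusted p = 6.4e-10), Id2 at 217 ± 20.1 against 69.1 ± 8.71, Id3 at 502 ± 136 against 94.7 ± 4.04 and Id4 at 71.9 ± 6.42 against 1.93 ± 0.859. The inhibitory SMAD gene Smad6 was at 71.7, 92 and 102 against 7.93, 14.9 and 11.4 (2.91 ± 0.21), and Smad7 was higher by 1.56 ± 0.12. The homeobox target Msx2 was at 28.6, 39.3 and 40.5 against 0.705, 1.35 and 0.979 (5.05 ± 0.39). The single member that was lower, the BMP antagonist Chrdl1, had 1 count in ASCs and 32 in EpiLCs.

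Wnt targets and feedback genes were divided. Of 28 listed genes 26 were tested, 15 higher and 6 lower, with a median of 1.5. Of the 15 with at least 10 counts in each of the 6 samples, 8 were higher and 4 lower and the median was 0.47, and the other 11 are low or absent in some samples. The negative feedback genes were among the higher ones. Axin2, the scaffold of the destruction complex, was at 110, 102 and 112 normalized counts per kb in ASCs against 6.51, 9.48 and 9.13 in EpiLCs (3.65 ± 0.20; edgeR adjusted p = 3.71e-11), and Notum, which removes the lipid from Wnt proteins, at 168, 133 and 132 against 3.36, 4.78 and 2.67 (5.25 ± 0.23). Sp5, a direct target and a member of the naive list too, was at 74.5, 115 and 121 against 1.65, 0.421 and 0.510 (6.87 ± 0.36). In these 3 genes the groups lay far apart. The factors that bind the targets did not follow: Lef1 was lower by 0.75 on the log2 scale (-0.75 ± 0.15; edgeR adjusted p = 0.000349), Tcf7l1, the repressor TCF3, by 0.49 (-0.49 ± 0.17; adjusted p = 0.0186, with overlapping samples, and not passing under library totals or without the first ASC or the second or the third EpiLC replicate), and Tcf7 did not pass the test (-0.08). Myc, a target in other tissues, was at 37.8, 58.5 and 65.4 against 234, 208 and 210 (-2.04 ± 0.20).

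The promoters of 4 members of these lists that hold a motif of their pathway were chosen as examples and are shown for 250 bases before the transcription start, 5′ to 3′ on the strand of the gene, from RefSeq on GRCm38.p6. Sp5 lies at chr2:70474673-70474922 on the plus strand and Dkk1, the secreted Wnt antagonist, at chr19:30549497-30549746 on the minus strand. Socs3 lies at chr11:117969367-117969616 and Id2 at chr12:25096093-25096342, both on the minus strand. Capitals mark CTTTGA, the core of the TCF site, in Sp5 and Dkk1, TTCNNNGAA, the STAT palindrome, in Socs3, and GGCGCC, a SMAD-binding sequence, in Id2, each searched on both strands.
Sp5: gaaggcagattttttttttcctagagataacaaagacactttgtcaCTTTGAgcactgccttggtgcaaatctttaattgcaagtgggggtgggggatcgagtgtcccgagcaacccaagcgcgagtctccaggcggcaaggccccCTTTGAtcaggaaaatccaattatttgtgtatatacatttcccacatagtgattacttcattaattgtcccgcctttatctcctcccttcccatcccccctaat
Dkk1: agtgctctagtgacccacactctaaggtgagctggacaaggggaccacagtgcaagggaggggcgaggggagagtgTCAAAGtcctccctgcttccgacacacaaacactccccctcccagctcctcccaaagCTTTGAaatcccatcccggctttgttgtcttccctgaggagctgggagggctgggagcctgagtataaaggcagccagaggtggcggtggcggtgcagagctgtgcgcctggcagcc
Socs3: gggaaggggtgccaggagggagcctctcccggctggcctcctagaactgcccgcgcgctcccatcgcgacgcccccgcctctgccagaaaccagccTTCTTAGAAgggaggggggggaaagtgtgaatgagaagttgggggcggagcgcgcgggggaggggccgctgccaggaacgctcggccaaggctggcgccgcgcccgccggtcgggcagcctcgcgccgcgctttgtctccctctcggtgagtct
Id2: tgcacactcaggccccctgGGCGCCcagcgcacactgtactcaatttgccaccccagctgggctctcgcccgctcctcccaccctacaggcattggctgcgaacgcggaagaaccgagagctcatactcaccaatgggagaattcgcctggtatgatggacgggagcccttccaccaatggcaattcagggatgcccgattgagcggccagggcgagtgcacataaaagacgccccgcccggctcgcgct

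Sp5 and Dkk1 held CTTTGA at 2 places each, and Dkk1 was at 23.1, 14.5 and 17.2 normalized counts per kb in ASCs against 1.43, 1.09 and 0.441 in EpiLCs. The core was in 6 of 25 promoters of the Wnt list (24%; several genes have more than 1 promoter), against 13.8% of all 32851 promoters, 12.1% of those of genes higher past 4-fold and 12% of those of genes lower past 4-fold. TTCNNNGAA was in 2 of 27 promoters of the LIF-STAT3 list (7.41%) and in 7.02% of all promoters. GGCGCC was in 6 of 16 promoters of the BMP list (37.5%), in 9.59% of all promoters and in 15.1% and 15.5% of those of the higher and lower genes. These are matches of letters in short windows and no measure of binding.

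Activin acts through the receptors and SMADs that Nodal uses, and genes of this pathway went in both directions. Of 24 listed genes 22 were tested, 9 higher (40.9%) and 7 lower (31.8%), with a median of 0.35. Among all genes tested the shares were 31.4% and 28.4%. The ligand gene Nodal overlapped between the groups, at 338, 249 and 228 normalized counts per kb in ASCs against 349, 293 and 264 in EpiLCs (-0.18 ± 0.20; edgeR adjusted p = 0.45). Its 2 feedback antagonists parted: Lefty1 was at 272, 218 and 222 against 2896, 2816 and 2299 (-3.52 ± 0.19; edgeR adjusted p = 2.33e-11), whereas Lefty2 was at 1090, 763 and 673 against 444, 427 and 362 (1.01 ± 0.19; edgeR adjusted p = 0.000213). The co-receptor Tdgf1, or Cripto, was higher at 2237 ± 452 against 729 ± 50.9, and its relative Cfc1 had 1 count in ASCs and 10 in EpiLCs. The SMAD partner Foxh1 was lower (-1.64 ± 0.29). Inhbb, which encodes a subunit of activin B, had 141 counts in ASCs and 2 in EpiLCs (ratio 73.7, interval 20 to 615).

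FGF ligands went in different directions. Of 17 tested ligands and receptors (22 listed) 7 were higher (41.2%) and 3 lower (17.6%), against 31.4% and 28.4% of all genes tested. Fgf5, Fgf8 and Fgf15 were lower in ASCs. Fgf8, a ligand of the gastrulating epiblast, was at 2.40, 6.92 and 5.69 normalized counts per kb in ASCs against 133, 87.8 and 109 in EpiLCs (-4.45 ± 0.35; edgeR adjusted p = 4.39e-09), and Fgf15 at 13.4 ± 2.73 against 141 ± 20.5. Fgf10, Fgf3 and Fgf1 were higher, Fgf10 with 60, 31 and 17 counts in ASCs and 1, 0 and 0 in EpiLCs (ratio 113, interval 19.8 to 4500), Fgf3 at 47.8, 42.0 and 33.5 normalized counts per kb against 8.44, 10.3 and 7.82 (2.17 ± 0.22; edgeR adjusted p = 1.54e-07) and Fgf1 at low levels (5.26 ± 2.05 against 0.942 ± 0.230). Fgf4, the ligand that ES cells make themselves, was at 539, 469 and 439 against 450, 450 and 448 and did not pass the test (0.08 ± 0.12; edgeR adjusted p = 0.597), and neither did the receptors Fgfr1 (0.21) and Fgfr2 (-0.35). Of 24 ERK target genes 11 were higher and 6 lower, with a median of 0.45. Spry2 and Spry4, inhibitors induced by ERK, were higher by 1.31 ± 0.11 and 0.84 ± 0.17, while the phosphatase Dusp6 was lower (-1.71 ± 0.13; edgeR adjusted p = 4.67e-09) and Etv5 did not pass the test (0.38 ± 0.18; edgeR adjusted p = 0.0847).

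**Figure D3:**
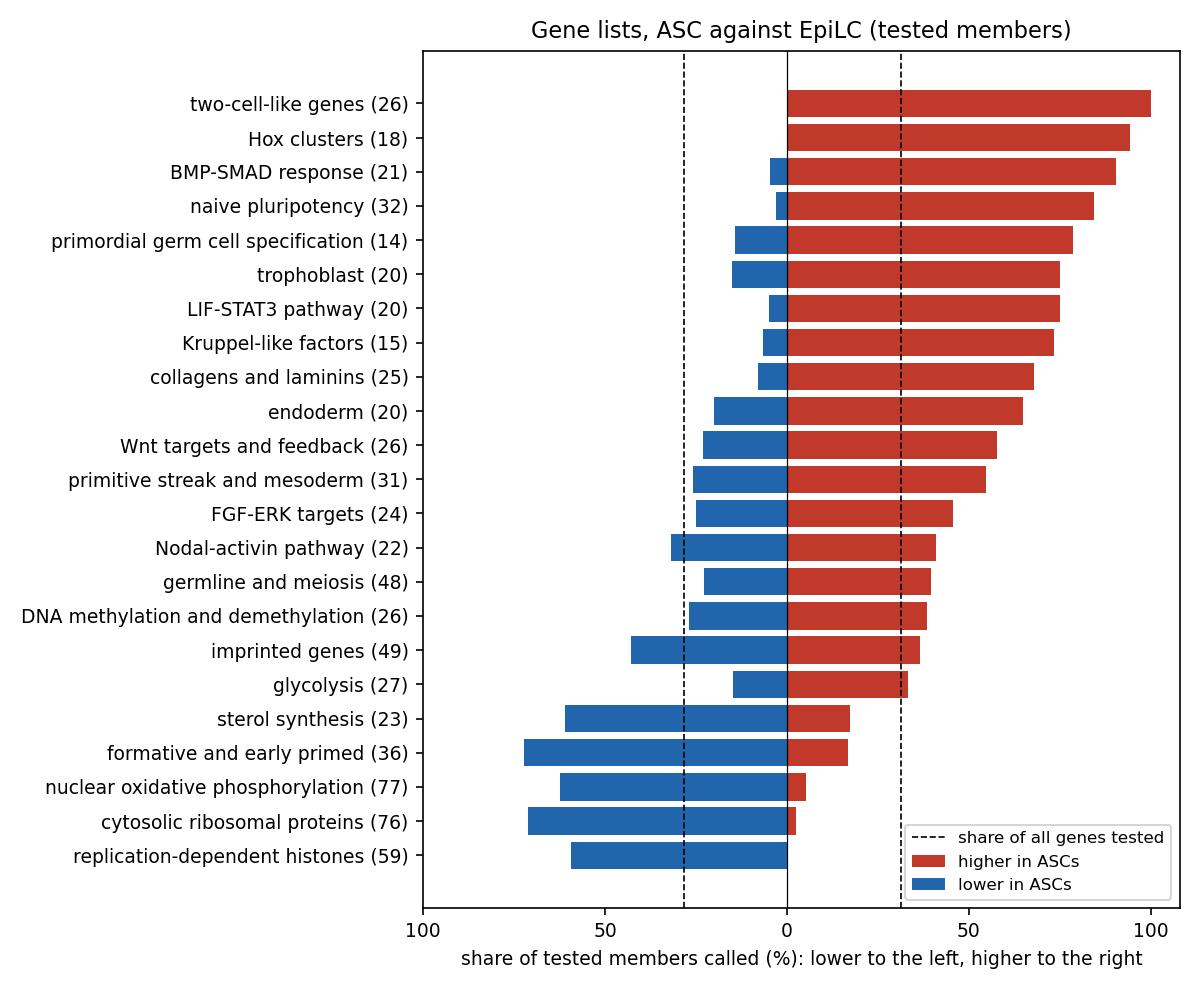
Share of the tested members of 23 gene lists called higher (red, to the right) and lower (blue, to the left) in ASCs, in percent, with the number of tested members in brackets. Dashed lines mark the share among all genes tested, 31.4% higher and 28.4% lower; the BMP-SMAD and naive lists lie far to the right and the ribosomal, histone and formative lists to the left.

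Among lineage genes, more were higher than lower in ASCs. Of 31 tested genes of the primitive streak and mesoderm list (39 listed), 17 were higher (54.8%) and 8 lower (25.8%). The shares among all genes tested were 31.4% and 28.4%, so the lower share was near that of all genes. Of the 10 with at least 10 counts in each of the 6 samples, 6 were higher and 3 lower. The caudal gene Cdx1 was at 245, 460 and 404 normalized counts per kb in ASCs against 2.64, 2.02 and 1.22 in EpiLCs (7.49 ± 0.32; edgeR adjusted p = 9.83e-12), and Cdx2 at 51.1 ± 8.80 against 1.72 ± 1.04. Hand1, a bHLH factor of extraembryonic mesoderm, was at 33.5, 35.4 and 47.8 against 0, 3.10 and 1.61 (4.45 ± 0.47). The members that were higher in EpiLCs included the Notch ligands Dll1 (73.8 ± 5.86 against 8.97 ± 2.92 in ASCs) and Dll3 (74.8 ± 10.2 against 5.65 ± 1.23), and Lmo2, a haematopoietic cofactor (26.3 ± 7.93 against 0.996 ± 0.508). Mixl1 overlapped between the groups at 1.39 ± 0.759 and 2.66 ± 1.83.

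Of 20 tested endoderm genes (25 listed), 13 were higher and 4 lower, or 6 and 1 of the 7 with at least 10 counts in each sample. Hnf4a, a liver and visceral endoderm factor, had 137 counts in ASCs and 1 in EpiLCs (ratio 143, interval 25.3 to 5700), whereas Foxa2, a factor of definitive endoderm and node, was at 0.455, 1.31 and 0.463 against 10.7, 10.5 and 9.03 (-3.69 ± 0.38; edgeR adjusted p = 1.57e-07). Gata4 and Gata6 were at 8.14 ± 0.631 and 5.66 ± 3.04 in ASCs and at 1.84 ± 0.215 and 0.853 ± 0.142 in EpiLCs. Of 20 tested trophoblast genes (24 listed), 15 were higher and 3 lower, with a median of 2.69. Of the 11 with at least 10 counts in each sample, 8 were higher and 0 lower, with a median of 1.63. Tfap2c, also a germ cell gene, was at 170, 192 and 209 against 13.2, 11.3 and 11.3 (3.97 ± 0.13; edgeR adjusted p = 9.23e-14), Tead4 at 74.3 ± 7.11 against 2.40 ± 0.692 and Krt19 at 133, 171 and 150 against 13.7, 9.54 and 8.08. The placental genes Elf5, Plac1, Prl3d1 and Tpbpa did not reach the count filter. Of these lists Gata2, Gata3, Cdx2 and Hand1 are also on the BMP list, so the counts are not separate. The sums of marker levels given above moved with these lists for primitive endoderm, mesoderm and trophoblast, and the part of other cells in the result was not tested.

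Hox genes were almost entirely on the ASC side, at low levels. Of 39 genes in the 4 clusters, 18 had enough counts to be tested and 17 of these were higher in ASCs. Hoxc13 was at 28.1, 37.6 and 36.5 normalized counts per kb in ASCs against 2.35, 0 and 0.870 in EpiLCs, and Hoxb13 at 22, 31.1 and 20.9 against 0.524, 0.401 and 0.970. Hoxa10 was at 14.8, 21.9 and 14.1 against 0, 0.812 and 0.327, and its means in the other 4 cell types were 1.60 or lower. The median log2 fold change of the 18 was 4.55, or 4.23 when the 3 genes with 0 counts in EpiLCs are set to the floor. Hoxd13 was the exception, at 6.58 ± 1.93 against 8.53 ± 3.15 (-0.37 ± 0.38; edgeR adjusted p = 0.407). Only Hoxd13 had 10 counts or more in each of the 6 samples, so the other tested genes are low or absent in some of them.

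Genes of the 2-cell-like state, a rare and transient condition of ES cells that resembles the 2-cell embryo, were higher in ASCs. Of 33 listed, 26 were tested, and 26 were higher with a median of 3.90. The list includes genes that the study picked from these libraries, so its direction is not independent evidence. The 6 members with at least 10 counts in each of the 6 samples were all higher, with a median of 4.05. The other members are low or absent in some samples. Zscan4c, which acts on telomeres in such cells, was at 864, 682 and 724 normalized counts per kb in ASCs against 58.4, 41.2 and 37.6 in EpiLCs (4.03 ± 0.25; edgeR adjusted p = 1.84e-10). The EpiLC level was above that of naive ESCs, AFSCs and EpiSCs, with means of 9.69, 0.789 and 0.140. The same order held for Zscan4f, at 998 ± 169 in ASCs, 69.8 ± 20.9 in EpiLCs and 12.1 in naive ESCs. Duxf3, the Dux gene that activates this programme, was at 7.60, 5.01 and 9.76 against 0.428, 1.64 and 0.794 (2.81 ± 0.54; edgeR adjusted p = 0.000621). Fragments that map to several places were counted at each, so members of the Zscan4, Usp17l and Tcstv families share counts.

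Of 15 genes of primordial germ cell specification 14 were tested, 11 higher and 2 lower, with a median of 1.60. Kit, the receptor for stem cell factor, was at 226, 120 and 131 normalized counts per kb in ASCs against 10.2, 11.4 and 12 in EpiLCs (3.8 ± 0.29; edgeR adjusted p = 3.07e-09), Nanos3 at 15.2, 30.3 and 26.1 against 8.75, 4.79 and 2.32 (2.15 ± 0.52), and Prdm1, the Blimp1 gene, at 13.6 ± 1.91 against 4.37 ± 1.16. Of 48 tested genes of later germline and meiosis, 19 were higher (39.6%) and 11 lower (22.9%), near the shares of 31.4% and 28.4% among all genes tested, with a median of 0.19. The difference between these lists was not tested. Dazl was at 275, 230 and 245 against 51.8, 39.1 and 42.6 (2.47 ± 0.19), whereas Ddx4, the vasa helicase, did not pass the test (-0.38 ± 0.21) and Sycp3, of the synaptonemal complex, was lower (-1.75).

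Imprinted genes gave large differences in both directions. Of 49 tested genes 18 were higher (36.7%) and 21 lower (42.9%), against 31.4% and 28.4% of all genes tested. Igf2, the paternally expressed growth factor, was at 551, 498 and 617 normalized counts per kb in ASCs against 4.64, 2.47 and 1.5 in EpiLCs (7.58 ± 0.36; edgeR adjusted p = 6.41e-12). Its ASC level was far above the means of 22.7 in AFSCs, 39.4 in EpiSCs, 1.27 in naive ESCs and 1.13 in ESC-ASCs, which were grown in the same medium. H19, the maternally expressed RNA of the same domain, was at 30, 53.4 and 49.5 against 113, 104 and 97.9 (-1.27 ± 0.42; edgeR adjusted p = 0.0158, not passing with DESeq2 or without the first ASC replicate), and Igf2r, the receptor that clears Igf2, was higher in ASCs at 474, 256 and 236 against 33.7, 45.2 and 38.4 (3.01 ± 0.29). Plagl1, a transcription factor of imprinted gene networks, was higher by 4.57 ± 0.17, and Grb10 by 2.89 ± 0.19.

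Other imprinted genes were higher in EpiLCs. Mest was at 31.2, 23.2 and 26.1 in ASCs against 614, 578 and 579 (-4.49 ± 0.15; edgeR adjusted p = 8.7e-14), Snrpn at 237, 321 and 336 against 1805, 1604 and 1718 (-2.55 ± 0.15), and Nap1l5 at 1.76, 1.69 and 1.19 against 65.8, 40.3 and 45.8 (-5.00 ± 0.47). The noncoding RNAs of the Dlk1-Dio3 domain, Meg3 (-1.67 ± 0.29), Rian (-2.03 ± 0.25) and Mirg (-2.65), were lower in ASCs together with the protein-coding Rtl1 (-3.70) and Dlk1 (-1.39 ± 0.40), while Dio3 was higher (2.10). Allele and parent of origin cannot be read from these counts.

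Glucose handling differed at single steps. The transporter gene Slc2a3 was at 5894, 3432 and 3071 normalized counts per kb in ASCs against 218, 342 and 267 in EpiLCs (3.88 ± 0.27; edgeR adjusted p = 7.12e-10), while Slc2a1 overlapped (0.31 ± 0.18; edgeR adjusted p = 0.149). Pfkp, the platelet form of the committing enzyme phosphofructokinase, was at 726, 700 and 692 against 91, 87.2 and 84.5 (2.98 ± 0.16), and the X-linked Pgk1 was higher by 1.5 ± 0.30. Gapdh, often used as a reference gene, was lower in ASCs, at 6132, 12911 and 12010 against 27090, 19425 and 19720 (-1.12 ± 0.23; edgeR adjusted p = 0.000385). Of 27 glycolysis genes 9 were higher (33.3%) and 4 lower (14.8%), against 31.4% and 28.4% of all genes tested. Of 23 genes of sterol synthesis, 14 were lower and 4 higher, with a median of -0.76. Hmgcs1, which makes HMG-CoA, was at 375, 325 and 358 against 1253, 1169 and 1194 (-1.80 ± 0.14; edgeR adjusted p = 5.39e-09). Ebp, an X-linked sterol isomerase, was the strongest exception, higher by 2.74 ± 0.20.

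Basement membrane genes were higher in ASCs. Of 25 tested collagen, laminin and related genes (27 listed), 17 were higher and 2 lower, with a median of 2.43, and 16 were higher with a median of 1.94 without the first replicate of both groups. Nid1, the nidogen that links laminin to collagen IV, was at 427, 243 and 246 normalized counts per kb in ASCs against 3.63, 9.22 and 5.49 in EpiLCs (5.58 ± 0.31; edgeR adjusted p = 4.32e-11), Fn1, fibronectin, at 1463, 854 and 868 against 55.2, 77.3 and 68.2 (3.96 ± 0.29), and Lama1 at 152, 90.8 and 82.9 against 5.83, 6.97 and 5.06 (4.15 ± 0.26). The first ASC replicate was the highest at each of these long genes, whose list has a median exonic length of 7973 bases. Epithelial genes were not uniform: Cdh1, E-cadherin, did not pass the test (-0.42 ± 0.23; edgeR adjusted p = 0.12, though it did without the first ASC replicate), Epcam (-1.29 ± 0.18) and the splicing factor Esrp1 (-3.05 ± 0.17) were lower in ASCs, and Zeb1, a repressor of epithelial genes, was higher, at 9.87 ± 1.08 against 0.521 ± 0.256.

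The housekeeping lists of short genes were lower in ASCs, and their counts moved with the first replicates. Of 76 cytosolic ribosomal protein genes, 54 were lower and 2 higher (Rps4x and Rpl10, both X-linked, neither called in a fit of the 6 samples alone or without the second ASC or second EpiLC replicate), with a median of -0.70. Rps24 was at 6612, 13762 and 11945 normalized counts per kb in ASCs against 39120, 20370 and 21430 in EpiLCs (-1.35 ± 0.25). Without the first EpiLC replicate 27 were lower, and without the first replicate of both groups 22 were lower and 3 higher with a median of -0.28. Of 77 tested nuclear genes of oxidative phosphorylation, 48 were lower and 4 higher with a median of -0.57, 25 were lower without the first EpiLC replicate, and 21 were lower and 6 higher without both. Of 59 tested replication-dependent histone genes, whose transcripts largely lack a poly(A) tail, 35 were lower and none was higher, 22 were lower without the first ASC replicate, 23 without the first EpiLC replicate and 16 without both. With the length trend of each library removed, the counts of lower genes were 51, 41 and 30. None of the 13 mitochondrially encoded genes passed the test of all samples (median -0.86), with 7 lower when the fit used the 6 samples alone and 3 with a replicate block.

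The remaining lists are given by their counts, to be read beside the shares of 31.4% higher and 28.4% lower among all genes tested. Of 14 tested Hippo-YAP genes 8 were higher and 2 lower, with Tead1 higher (2.57) and Tead2 lower (-0.94). Of 16 tested Notch genes 6 were higher and 3 lower, with the receptor Notch4 at 57.7, 36.3 and 32.5 normalized counts per kb in ASCs against 1.86, 1.76 and 1.59 (4.56 ± 0.31) and the ligands Dll1 and Dll3 on the EpiLC side. Of 15 tested Kruppel-like factors 11 were higher and 1 lower (Klf7, -1.13). Of 29 polycomb genes 13 were higher and 4 lower, or 10 and 8 with the length trend removed, and Epop, a PRC2 cofactor with the largest difference of the list, was at 1728, 2965 and 2837 against 454, 524 and 554 (2.27 ± 0.19). Of 19 tested genes of MHC class I presentation 2 were higher and 6 lower, among them the immunoproteasome gene Psmb8 (-3.25 ± 0.27). Of 21 p53 targets 10 were higher and 3 lower, with Pmaip1, the Noxa gene, at 85.2, 90.7 and 97 against 696, 538 and 579 (-2.76 ± 0.13) and Perp higher (2.27 ± 0.19). Among G1 cyclins, Ccnd3 was higher (1.91 ± 0.14) and Ccnd1 did not pass the test (-0.23 ± 0.13). Of the 21 G1 genes 10 were higher and 4 lower. Of 16 tested retinoic acid genes 6 were higher and 6 lower, and of 16 tested neural genes 8 were higher and 4 lower, at summed marker levels of 10.5 to 13.9 and 10.9 to 14.2. Cadherin, junction and EMT genes (13 of 33 tested higher, 9 lower), dual-specificity phosphatases (7 of 15 higher, 5 lower), serine, glycine and threonine enzymes (9 of 23 higher, 5 lower), oncofetal RNA-binding genes of the LIN28 group (4 of 15 higher, 7 lower), MYC family genes (3 of 11 higher, 5 lower) and fibroblast genes (4 of 15 tested higher, 3 lower) were mixed.

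The X chromosome differed as a whole. Of 641 X-linked genes tested, 390 were higher in ASCs (60.8%) and 83 lower (12.9%), against 30.3% and 29.0% of 16212 autosomal genes, and the median log2 fold change was 0.90 against 0.02. In each sample, the median deviation of X-linked genes from their mean over the 6 samples, less that of autosomal genes, was 0.50, 0.36 and 0.39 in ASCs and -0.41, -0.48 and -0.45 in EpiLCs, so the groups did not overlap. The difference of the means was 0.86 on the log2 scale (exact 2-sided permutation test over 6 samples, p = 0.1, the smallest that 3 against 3 can give), and 0.91 over genes with at least 100 counts on average. The median was between 0.61 and 1.22 in each of the 7 stretches of 25 Mb along the chromosome. Against EpiLCs, the same measure was 0.88 ± 0.11 (SD, n = 3) in ASCs and between -0.17 and -0.04 in the other 4 cell types, and autosomes taken one by one had medians between -0.15 and 0.16.

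Genes of X inactivation and the Y chromosome were read beside this. Xist, the RNA that coats an inactive X, was at 33.8, 16 and 17.6 normalized counts per kb in ASCs against 7.86, 5.77 and 5.43 in EpiLCs (1.80 ± 0.33; edgeR adjusted p = 0.000168), well below the means of 234 in AFSCs and 138 in EpiSCs. Counting did not use strand, and Xist shares counts with the antisense gene Tsix (0.57 ± 0.36; edgeR adjusted p = 0.175). Ftx (-2.14 ± 0.33) and Jpx (-2.33 ± 0.56), noncoding genes next to Xist, were lower in ASCs. Over 6 Y-linked genes (Ddx3y, Eif2s3y, Kdm5d, Uty, Zfy1 and Usp9y), ASCs had 3 counts in all and EpiLCs 2, where ESC-ASCs had 10115. The number and the state of the X chromosomes in each line were not measured here.

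**Figure D4:**
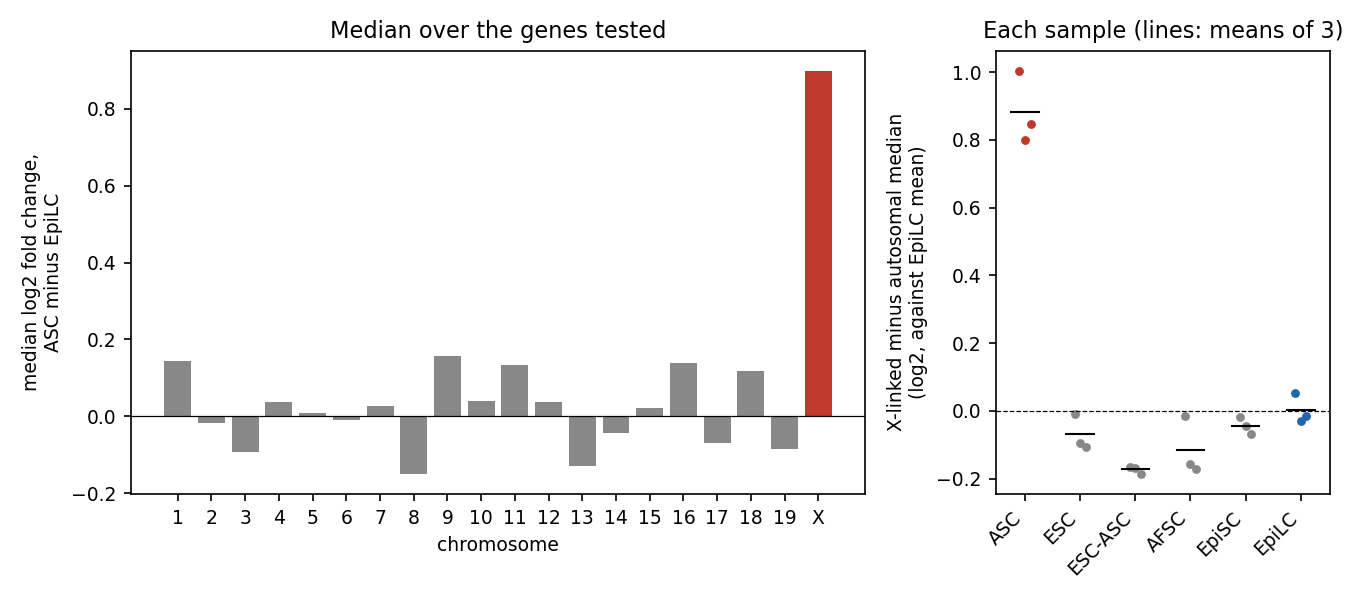
Left, median log2 fold change, ASC minus EpiLC, over the tested genes of each chromosome, with X in red at 0.90. Right, X-linked minus autosomal median in each of the 18 samples relative to the EpiLC mean (log2), in which the 3 ASC samples sit between 0.80 and 1.0 and every other sample between -0.19 and 0.05.

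The comparison was set beside that of naive ESCs with EpiSCs, which shares no sample with it. Of the 1202 genes higher in ASCs past 4-fold, 878 (73.0%) were higher and 107 (8.90%) lower in naive ESCs than in EpiSCs, where 32.0% and 29.2% of all tested genes were called. Of the 484 lower genes, 331 (68.4%) were lower and 41 (8.47%) higher. Across the 16901 genes the 2 sets of log2 fold changes had a Pearson correlation of 0.475, given as a description, since genes are not independent and all samples were normalized in one fit. ESC-ASCs, naive ESCs moved into the ASC medium, were then set against naive ESCs in the same way. Of the 1202 genes 345 (28.7%) were higher and 485 (40.3%) lower in ESC-ASCs, and of the 484 genes 175 (36.2%) were higher and 112 (23.1%) lower, where 30.6% and 29.6% of all genes were called. The correlation was -0.0838. The ESC-ASC libraries had 17813619 to 18071600 counts and the naive ESC libraries 4961934 to 8077252. ESC-ASCs had Y-linked counts, which were not summed for naive ESCs. Line, sex, library depth and medium cannot be told apart in this second comparison.

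**Figure D5:**
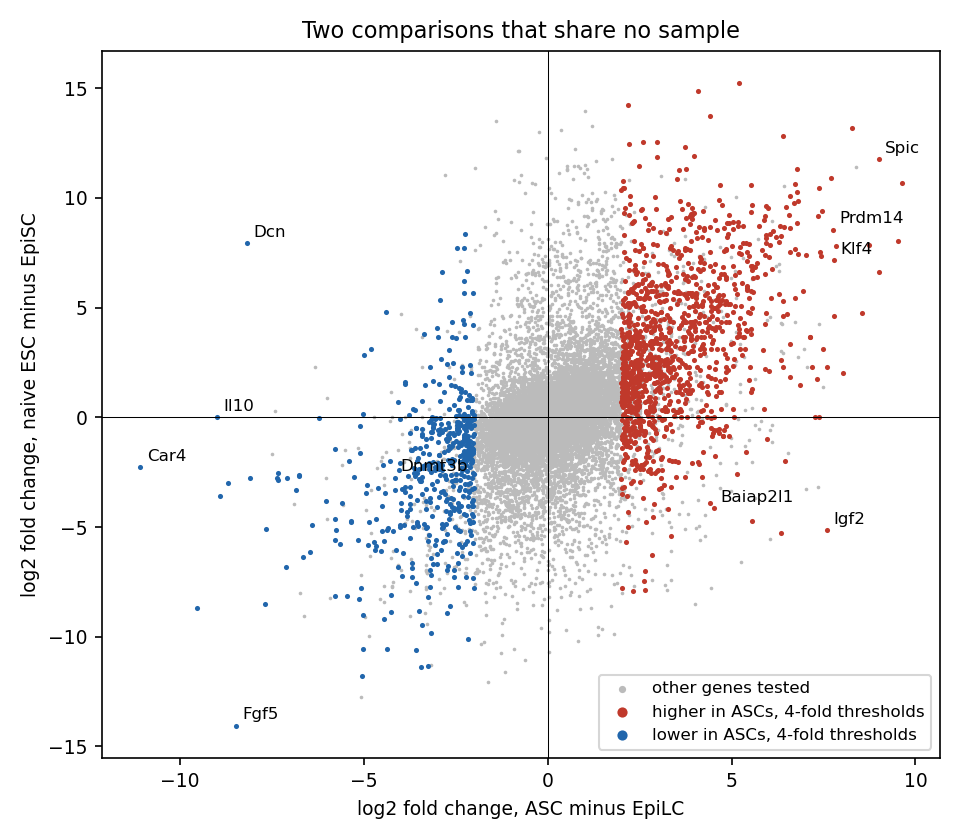
Log2 fold change of each tested gene between ASCs and EpiLCs (x axis) and between naive ESCs and EpiSCs (y axis), with red and blue points for genes past the 4-fold thresholds on the x axis. Most red points lie above 0 and most blue points below, with Igf2, Baiap2l1 and Dcn among those that lie on the other side.

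Genes that ran against this trend were picked after their values were seen. Igf2 and Porcn, the X-linked enzyme that adds a lipid to Wnt proteins, were higher in ASCs than in EpiLCs and lower in naive ESCs than in EpiSCs, where their log2 values were -5.13 and -3.90. Porcn was at 209, 200 and 213 normalized counts per kb in ASCs against 10.4, 11.2 and 6.78 in EpiLCs (4.41 ± 0.22). Baiap2l1, which shapes membranes through actin, was at 386, 460 and 457 normalized counts per kb in ASCs against 16.8, 17.9 and 21 in EpiLCs (4.52 ± 0.20), with means of 338 in ESC-ASCs and 2.56 in naive ESCs. In the other direction, Dcn and Nap1l5 were lower in ASCs than in EpiLCs but higher in naive ESCs than in EpiSCs, by 7.93 and 2.82. Of the 1202 genes, the mean level was highest of the 6 cell types in ASCs for 602 (50.1%), in naive ESCs for 339 (28.2%) and in ESC-ASCs for 184 (15.3%). Of the 484 genes, it was highest in EpiLCs for 281 (58.1%), in EpiSCs for 95 (19.6%) and in AFSCs for 93. Both sets were chosen by the difference between ASCs and EpiLCs, which favours the higher group and bars the other from being highest. The shares over all genes tested were not computed, so these counts only describe the sets.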

How the data were processed

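RNA was measured in 18 samples, of which the 3 ASC and 3 EpiLC samples were compared. Per the labels and the methods, the authors aligned paired reads with TopHat2 to GRCm38 (mm10) and counted fragments per Ensembl gene with featureCounts, including fragments that map to several places or genes, without regard to strand. The deposited values are raw counts per gene, with exonic gene length. Genes with at least 10 counts in 3 samples were tested in edgeR 4.0.16 (TMM, robust quasi-likelihood test, all 18 samples in 1 fit with 12 residual degrees of freedom, Benjamini-Hochberg adjustment), which was first tested on simulated data. SE is the absolute log2 fold change divided by the square root of F. Levels were divided by DESeq2 1.42.0 size factors, with a pseudocount of 0.1 on log2 scales. Ratios with 0 to 3 counts in a group use summed counts scaled by library, exact 95% intervals and a floor of 3 counts, which cover counting error only. The members and gene lists were chosen with earlier results of these data known. Named genes were list members, the 15 largest changes in each direction past 4-fold without overlap, and the 10 largest differences in level in each direction. Alternatives changed normalization, filter, test and samples. A few genes are not reported here.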

Additional observations from a re-analysis of the deposited data

How the results depend on the processing

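The number of higher genes was 4322 to 6237 and of lower genes 3620 to 5073 under every alternative but 2. A test against 1.5-fold (glmTreat) gave 3470 and 2524. Requiring 10 counts in each of the 6 samples left 12833 genes and gave 4002 higher and 3639 lower. Past 4-fold this filter gave 561 and 209, against 1202 and 484 in the main fit. Leaving out 1 library at a time gave 4835 to 5114 higher and 3862 to 4498 lower genes, 1151 to 1276 and 413 to 521 past 4-fold, and an X-linked difference of 0.821 to 0.892. The replicate numbers did not pair ASC with EpiLC samples by their deviations across genes. Same-numbered samples correlated at -0.0757, -0.164 and 0.117, and of the ASC samples only the third correlated best with its own number. The first replicate nevertheless had the highest mitochondrial share of counts in every cell type but ESC-ASCs, 3.48% in ASCs and 4.31% in EpiLCs. Whether replicate number marks a shared effect was not tested. A replicate block gave 5481 higher and 5073 lower genes and a common dispersion of 0.0218, against 0.0283 in the main fit. DESeq2 gave 5460 and 4667. Alternatives that left out both first replicates, removed the length trend or used autosomal TMM factors were chosen after seeing the data.

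Of 198 named genes, 169 kept direction and side of the threshold under each of 16 alternatives in which they were tested. The test against 1.5-fold (glmTreat) is not among these 16. None that passed the test reversed. Of those that did not pass, 4 changed sign when 1 library was left out, over ranges of -0.67 to 0.67 for Col3a1 (positive without the third EpiLC replicate), -0.016 to 0.14 for Fgf4, -0.15 to 0.17 for Gdf3 and -0.38 to 0.044 for Pou5f1, the last 3 without the first ASC replicate and Gdf3 also without the third EpiLC replicate (-0.064). Without both first replicates the values were -0.020 for Fgf4, -0.10 for Gdf3, 0.045 for Hoxd13, 0.15 for Pou5f1 and -0.034 for Tet3. With the length trend removed they were -0.13 for Fgfr1, 0.011 for Tcf7, -0.25 for Tet3 and -0.15 for Tfe3, and under library totals 0.037 for Dppa2, 0.045 for Nodal, 0.0037 for Pou5f1 and 0.12 for Tcf7. The causes were not tested. AY036118, CT010467.1, Cfc1, Eef2 and Rps12 also passed the test in the main comparison but lost it without at least 1 single library. Those libraries were the first or second ASC or the first EpiLC replicate for AY036118 and CT010467.1, the second or the third ASC or the second EpiLC replicate for Cfc1, the second or the third ASC or the first EpiLC replicate for Eef2, and the first EpiLC replicate for Rps12. Rpl10 was also lost without the third ASC or the third EpiLC replicate. Fgfr2 and Tsix passed it without the first EpiLC replicate. Without the second EpiLC replicate, 2 G1 genes and 2 neural genes were lower.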
